A study of Mus musculus with 6 samples.

Results

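The genes examined here are 10 members of the S100, annexin and galectin set with their cytoskeletal companions: S100a4, S100a6, S100a10, S100a11, Lgals3, Anxa1, Anxa2, Crip1, Ahnak and Capg. Members were the probe sets whose platform annotation gives one of these symbols alone, which held for 9 genes and 18 probe sets out of 18193 genes and 45037 probe sets tested. S100a11 has no value, because its probe set is annotated to several genes at once. Expression was measured in splenic regulatory T cells (Tregs) of female NOD mice, a strain that develops autoimmune diabetes, on 6 Affymetrix M430v2 arrays with 1 mouse per array. All mice carried the BDC2.5 T cell receptor transgene and a Foxp3GFP reporter, and cells were sorted for CD4 and GFP after excluding those with B220, CD8a or CD11b/c. The 3 treated mice were RAG1o/o, which leaves them without lymphocytes made from other rearranged receptors, and received 37.5 µg of the anti-CD3 antibody KT3 intravenously on 5 days from an age of 17 days. Their cells were taken at 29, 29 and 28 days of age, labelled as 12, 12 and 11 days after treatment, which by these ages counts from the first injection. The 3 untreated mice were RAG1+/o, aged 29, 28 and 28 days. Antibody and RAG1 genotype therefore differed together and cannot be told apart in any difference below.

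S100 proteins are small calcium-binding proteins built on EF-hand loops, and annexins are proteins that attach to membrane phospholipids when calcium is present. S100A10 pairs with annexin A2 at the inner face of the plasma membrane, where the very large scaffold protein AHNAK also binds. Galectin-3, made from Lgals3, is a lectin that binds galactose-containing sugars on glycoproteins. CRIP1 is a small LIM-domain protein and CAPG, a relative of gelsolin, caps the fast-growing ends of actin filaments. Many of these transcripts are known to be more abundant in effector and memory T cells than in naive ones, and several are also abundant in neutrophils and macrophages. In bulk samples such as these, fewer cells of a type and less RNA per cell cannot be told apart.

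Promoter sequence is shown for 4 members: S100a4, S100a6 and Crip1, whose values were far lowest on the same array, and Lgals3, the gene whose brightest probe set had the smallest p value. Each line is the 250 bases before the RefSeq start of the gene, 5′ to 3′ on the plus strand of GRCm38.p6, and ends at the base before the first exon. S100a4 spans chr3:90603770-90606045 and S100a6 chr3:90612894-90614414, with 6848 bases between them. The windows printed are chr3:90603520-90603769 for S100a4, chr3:90612644-90612893 for S100a6, chr12:113151762-113152011 for Crip1 and chr14:47373610-47373859 for Lgals3. Capitals mark matches on either strand to any of 5 motifs. The letters searched were TATAAA for the TATA box and GGGCGG for the GC box. The CACCC box was searched by the letters of its name. The core of RUNX factor sites was searched as TGTGGT, and the site of AP-1 factors as TGANTCA.
S100a4: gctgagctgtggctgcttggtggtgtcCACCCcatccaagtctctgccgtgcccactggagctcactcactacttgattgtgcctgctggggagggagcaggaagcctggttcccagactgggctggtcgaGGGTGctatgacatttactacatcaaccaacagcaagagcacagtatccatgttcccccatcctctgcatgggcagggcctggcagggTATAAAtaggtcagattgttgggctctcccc
S100a6: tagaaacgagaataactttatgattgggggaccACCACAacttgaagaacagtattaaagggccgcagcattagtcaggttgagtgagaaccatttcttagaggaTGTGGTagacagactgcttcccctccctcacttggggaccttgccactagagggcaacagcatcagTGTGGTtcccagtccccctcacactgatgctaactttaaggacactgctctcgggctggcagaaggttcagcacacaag
Crip1: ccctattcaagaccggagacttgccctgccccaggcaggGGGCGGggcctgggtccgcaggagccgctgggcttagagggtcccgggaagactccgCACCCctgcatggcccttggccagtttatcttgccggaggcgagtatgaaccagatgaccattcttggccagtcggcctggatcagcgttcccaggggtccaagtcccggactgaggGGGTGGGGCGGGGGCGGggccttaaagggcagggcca
Lgals3: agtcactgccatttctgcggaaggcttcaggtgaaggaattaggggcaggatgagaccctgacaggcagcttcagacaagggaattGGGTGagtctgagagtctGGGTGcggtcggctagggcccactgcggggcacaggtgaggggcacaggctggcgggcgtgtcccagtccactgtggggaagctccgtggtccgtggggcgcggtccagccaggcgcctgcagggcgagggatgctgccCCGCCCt
S100a4 had a TATAAA 31 to 26 bases before its start and 2 CACCC matches. S100a6 had 3 TGTGGT matches and none of the other 4 motifs. Crip1 had 3 GGGCGG and 2 CACCC matches, and Lgals3 had 1 GGGCGG and 2 CACCC matches. No matches overlapped within these 4 windows, and adjoining ones run together in the Crip1 line. Over all 32851 promoter windows of this length in the table, 12.4% held TATAAA, 32.7% GGGCGG, 52.0% CACCC, 14% TGTGGT and 6.75% TGANTCA. S100a4, S100a6 and Crip1 thus had none of the 5 motifs in common to all of them.

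Values below are log2 of the authors' RMA intensities. Array medians ran from 85.3 to 92.4 on the linear scale, and the median probe set had a mean of 6.46 on the log2 scale. Differences are treated minus untreated, with the 95% interval of a limma fit over all probe sets, and a call needed a Benjamini-Hochberg adjusted p under 0.05 over all 45037 of them. Levels of different probe sets are not compared, since probes differ in brightness. An untreated array that stood apart was replicate 3, in which Ngp, a neutrophil granule gene used as a gauge of myeloid RNA, was at 6.33 against 13.81 to 14.56 on the other arrays. Untreated replicate 2 stood apart in the members themselves. Treated replicate 2 was more than 1 log2 unit below every other array in 236 of 10864 genes with a linear mean of at least 100, the highest such number of the 6 arrays, and its hybridization controls averaged 13.84 against 10.48 to 11.69. Member differences that rest on an untreated array are given with and without it. T cell and Treg marker RNA was present on all arrays, with Cd3e between 11.62 and 12.16 and Foxp3 between 9.95 and 12.44. RNA of cell types that the sort excluded was present too. Besides Ngp, the mean of 12 B cell markers was 9.96 and 9.91 in untreated replicates 1 and 2. It was 6.48 to 7.06 on the other arrays.

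Most members had higher mean values in treated than in untreated Tregs, and none passed the test. Of the 18 probe sets, 15 had a difference above 0 and 3 below, where 58.0% of all probe sets lay above 0 and 42.0% below. By limma 0 of 18 were called higher and 0 lower, against 0.0% of all probe sets in either direction. An unadjusted limma p under 0.05 was reached by 3 probe sets in the higher and 0 in the lower direction, against 1.53% and 3.0% of all probe sets. The groups did not overlap in 4 member probe sets, all higher in treated samples, and in 0 lower ones, against 5.14% and 5.02% of all probe sets. These 4 were the S100a4 and Lgals3 probe sets and dim probe sets of Ahnak and Anxa2. Without untreated replicate 3 there were 7 higher and 1 lower, Ahnak 1452217_at, against 11.9% and 10.6% of all probe sets. Without untreated replicate 2 there were 4 higher and 0 lower, against 8.68% and 7.51%. Taking the brightest probe set of each gene, 8 of 9 genes had a difference above 0 and 1 below, against 58.5% and 41.5% of all 18193 genes. By the same count 1 gene, Lgals3, had an unadjusted limma p under 0.05 in the higher direction and 0 in the lower, against 1.82% and 3.17%. The groups did not overlap for 2 genes higher and 0 lower, against 5.61% and 5.24%. The median difference over the 9 genes was +0.61, against +0.05 over all genes. It was +0.20 without untreated replicate 2, with 6 of 9 genes above 0, and +1.04 without untreated replicate 3, with 7 of 9 above 0.

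**Figure D1:**
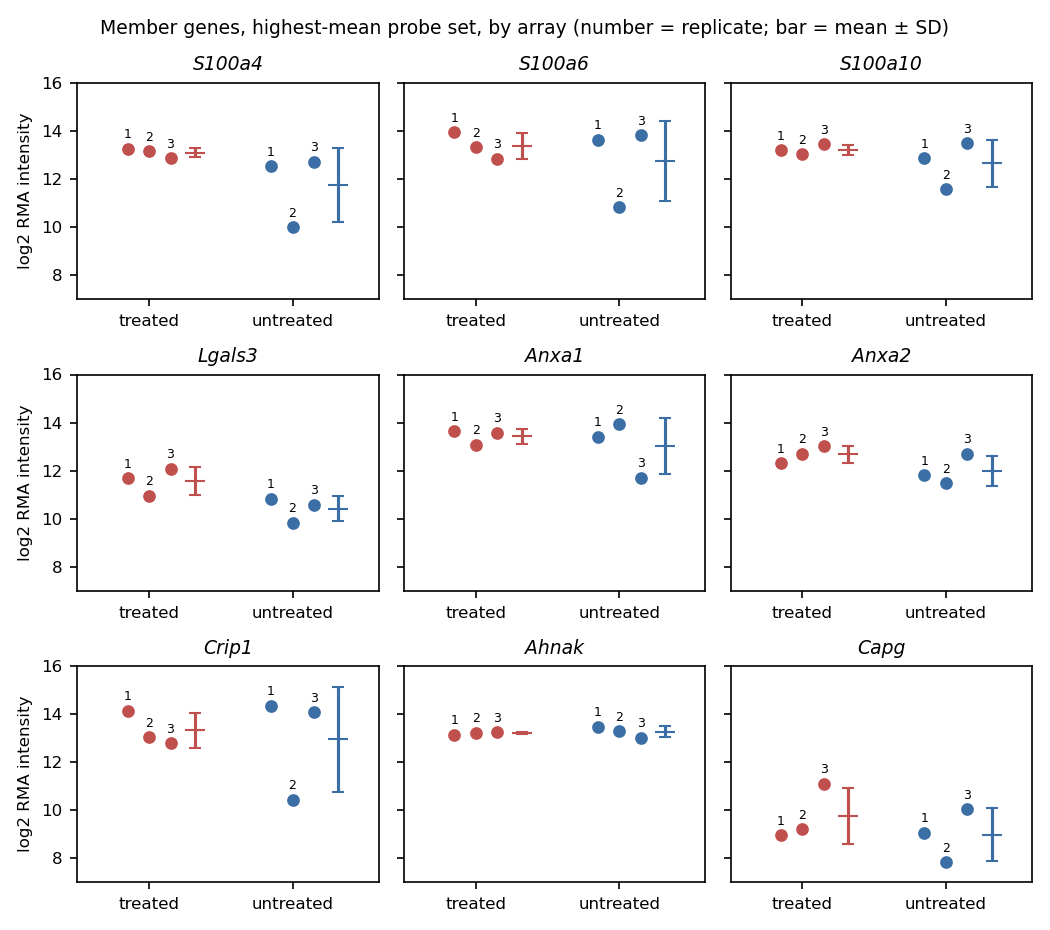
Log2 RMA intensity of the brightest probe set of each of the 9 measured member genes, 1 point per array with the replicate number above it, and the mean ± SD of 3 arrays beside it. Untreated replicate 2 lies lowest of all 6 arrays for S100a4, S100a6, S100a10, Lgals3, Anxa2, Crip1 and Capg, while untreated replicate 3 is lowest for Anxa1 and Ahnak.

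Among the S100 members, S100a4 had the largest difference. This gene encodes a protein that binds non-muscle myosin and is tied to cell movement. S100a4 (probe set 1424542_at) measured 13.27, 13.17 and 12.88 in treated and 12.54, 9.99 and 12.73 in untreated replicates 1, 2 and 3. All 3 treated arrays were above all untreated arrays, by a narrow margin for untreated replicates 1 and 3 and a wide one for replicate 2. The means were 13.10 ± 0.20 (SD, n = 3) and 11.75 ± 1.53, a 2.55-fold higher treated level (difference +1.35, interval −0.26 to 2.96, limma adjusted p = 0.961). Without untreated replicate 2 the difference was +0.47 (interval −0.05 to 0.98, limma adjusted p = 1.0), and without untreated replicate 3 it was +1.84.

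S100a6, which encodes calcyclin, measured 13.96, 13.32 and 12.85 in treated and 13.64, 10.83 and 13.82 in untreated replicates 1, 2 and 3. The groups overlapped, with untreated replicates 1 and 3 among the higher arrays and untreated replicate 2 far below every other. The difference was +0.61 (interval −1.21 to 2.44) and turned to −0.35 without untreated replicate 2.

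S100a10, the annexin A2 partner, lies at chr3:93555117-93564645 and has 3 probe sets. The brightest, 1456642_x_at, measured 13.21, 13.03 and 13.44 in treated and 12.88, 11.58 and 13.50 in untreated replicates 1, 2 and 3. Its difference was +0.57 (interval −0.50 to 1.64) and shrank to +0.03 without untreated replicate 2. The suffix x marks probes that can also bind related transcripts, so the other probe sets are given beside it. Probe set 1416762_at differed by +0.46 and 1439348_at by +0.70, and without untreated replicate 2 the first turned to −0.53 and the second was +0.17. All 3 probe sets were lowest in untreated replicate 2, by 1.30 to 2.06 below the next lowest array.

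Lgals3, at chr14:47373860-47386167, had a higher mean in the treated samples whichever array was left out. It measured 11.69, 10.95 and 12.09 in treated and 10.84, 9.84 and 10.58 in untreated replicates 1, 2 and 3. The treated arrays all lay above the untreated ones, though treated replicate 2 exceeded untreated replicate 1 by little. The means were 11.58 ± 0.58 and 10.42 ± 0.52, a 2.23-fold difference (+1.16, interval 0.30 to 2.01). Its unadjusted limma p was 0.0150 and its adjusted p 0.961, so it was not called. Leaving out each array in turn gave differences of +0.87 to +1.47, of which +0.87 was without untreated replicate 2. On the 5 arrays with Ngp between 13.81 and 14.56, Lgals3 ran from 9.84 to 12.09, and on the array with Ngp at 6.33 it was 10.58. Ngp is a neutrophil granule gene and does not by itself gauge macrophage RNA. The mean of 19 macrophage and dendritic cell markers was also lowest in untreated replicate 3, at 7.18 against 8.40 to 9.23. The part of myeloid RNA in the Lgals3 values was not tested.

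Of the annexin members, Anxa1 was lowest in untreated replicate 3 and Anxa2, by its brightest probe set, in untreated replicate 2. Anxa1, at chr19:20373434-20390671, encodes annexin A1, an inflammation-resolving protein abundant in neutrophils. Its brightest probe set, 1448213_at, measured 13.65, 13.07 and 13.58 in treated and 13.41, 13.94 and 11.70 in untreated replicates 1, 2 and 3. The highest and the lowest arrays were both untreated, replicate 2 and replicate 3. The difference was +0.42 (interval −0.86 to 1.69), +0.88 without untreated replicate 2 and −0.24 without untreated replicate 3. Untreated replicate 3, the array with Ngp at 6.33, was 1.38 below the next lowest array in Anxa1. The other Anxa1 probe set, 1444016_at, was dim at 5.38 to 6.23 and differed by −0.04.

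Anxa2, at chr9:69453683-69491792, encodes the S100A10 partner annexin A2. Probe set 1419091_a_at measured 12.32, 12.71 and 13.02 in treated and 11.81, 11.49 and 12.70 in untreated replicates 1, 2 and 3. Untreated replicate 3 lay among the treated arrays while untreated replicates 1 and 2 lay below them. Each treated array was above the untreated array of the same number, though the numbers were not taken as pairs. The difference was +0.68 (interval −0.12 to 1.49, limma adjusted p = 0.961). It was +1.04 without untreated replicate 3 (limma adjusted p = 0.731) and +0.43 without untreated replicate 2. The dim probe set 1437692_x_at differed by +0.82 (interval 0.13 to 1.52), with its highest value, 6.99, in treated replicate 2. Probe set 1437691_at stayed between 3.13 and 3.34 on all arrays.

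Crip1, at chr12:113152012-113153879, had the widest spread of the members. It measured 14.15, 13.04 and 12.78 in treated and 14.35, 10.43 and 14.07 in untreated replicates 1, 2 and 3. Untreated replicates 1 and 3 were among the highest arrays and untreated replicate 2 was the lowest by far. The difference was +0.37 (interval −2.0 to 2.74) and turned to −0.89 without untreated replicate 2.

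Capg, at chr6:72538282-72562983, varied within both groups. Probe set 1450355_a_at measured 8.96, 9.22 and 11.10 in treated and 9.07, 7.84 and 10.05 in untreated replicates 1, 2 and 3. Replicate 3 was the highest array of each group, and the groups overlapped. The difference was +0.77 (interval −0.90 to 2.45), +0.20 without untreated replicate 2 and +1.31 without untreated replicate 3. Leaving out treated replicate 3 gave the lowest value, +0.10. The second probe set, 1447803_x_at, differed by +0.22 and by −0.21 without untreated replicate 2.

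Ahnak, at chr19:8989284-9076935, was the steadiest member. Its brightest probe set, 1452217_at, measured 13.15, 13.22 and 13.25 in treated and 13.48, 13.28 and 13.02 in untreated replicates 1, 2 and 3. The treated arrays lay inside the range of the untreated ones, and the difference was −0.05 with an interval of −0.46 to 0.35. Of its 3 dim probe sets, all below the median probe set of 6.46 on every array, 1428057_a_at gave the smallest p value of any member probe set. This probe set read 6.08, 6.05 and 6.32 in treated and 5.66, 5.31 and 5.49 in untreated replicates 1, 2 and 3 (difference +0.66, interval 0.26 to 1.06). Its unadjusted limma p was 0.00607 and its adjusted p 0.961. All its treated values were above all untreated ones. Probe sets 1429866_at and 1428058_at differed by −0.05 and +0.03. The Ahnak probe sets thus gave unlike values for the same gene.

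**Figure D2:**
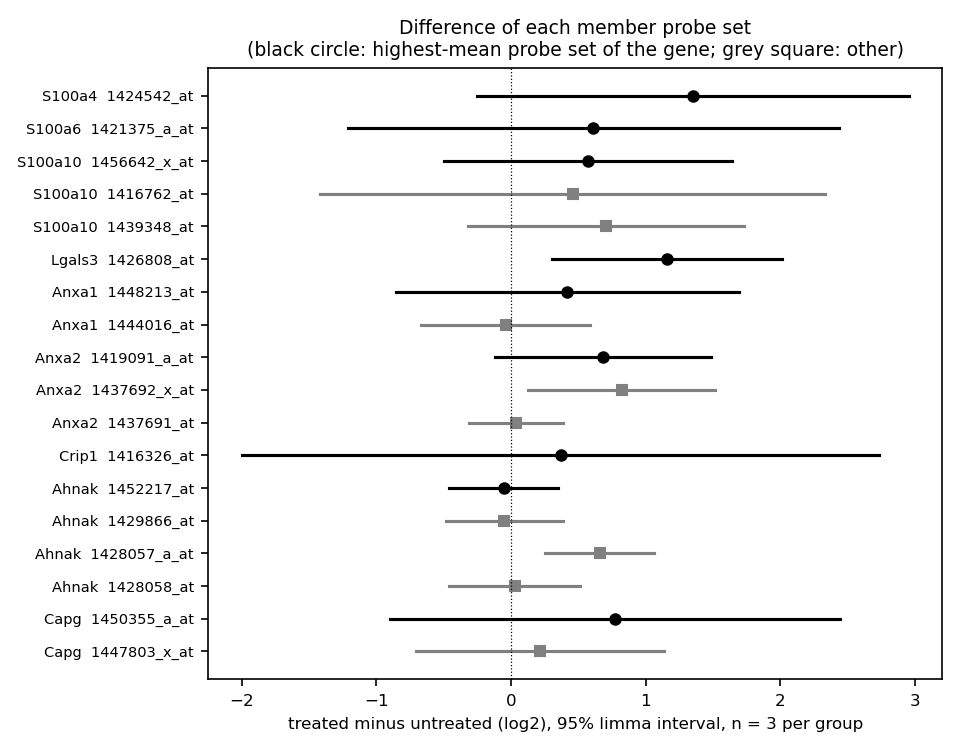
Treated minus untreated difference (log2) with its 95% limma interval for each of the 18 member probe sets, 3 arrays per group; black circles are the brightest probe set of a gene and grey squares the others. The interval lies above 0 for Lgals3 and for dim probe sets of Anxa2 and Ahnak, and none passed after adjustment over all probe sets.

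Untreated replicate 2 set much of the spread among these genes. Among 10864 genes with a linear mean of at least 100, untreated replicate 2 was more than 1 log2 unit below every other array in 86, or 0.792%. Of the 9 member genes, 5 were among them: S100a4, Crip1, S100a6, S100a10 and Capg. Ranked by this distance over all genes, S100a4 was at rank 1 with 2.55 log2 units, Crip1 at rank 3 with 2.35 and S100a6 at rank 5 with 2.02. This count was made after the values were seen. Lgals1, which encodes galectin-1 and is no member, was at rank 2, at 9.99 against 12.45 to 13.33 on the other arrays, and Cox5b, a subunit gene of the respiratory chain, was at rank 4, at 9.46 against 11.56 to 12.58. Lgals3 was 0.74 below the next lowest array, and Ahnak and Anxa1 were not lowest there. Untreated replicate 3 was more than 1 log2 unit below every other array in 171 genes, or 1.57%, with 1 member among them, Anxa1.

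Other values of that array are given for comparison. T cell marker genes had a mean of 10.33 in untreated replicate 2 and of 11.07 to 11.75 on the other arrays over 9 measured genes. Among them Cd3d, picked after its values were seen, was at 10.55 against 12.04 to 12.88, while Cd3e was at 11.62 against 11.78 to 12.16 and Cd28 was not lowest there. Its Ngp value of 14.40 was within the range of the treated arrays, and its B cell marker mean of 9.91 was close to the 9.96 of untreated replicate 1. The RNA was amplified in 2 rounds, so 3′ minus 5′ differences of control probe sets do not gauge its integrity alone. The Gapdh difference was 3.87, against 3.23 and 2.02 in the other untreated arrays and 3.38 to 4.10 in the treated ones. That of Actb was 1.95, against 1.31 and 0.92 in the other untreated arrays and 1.42 to 3.62 in the treated ones. The part of these features in the low S100 and Crip1 values was not tested.

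**Figure D3:**
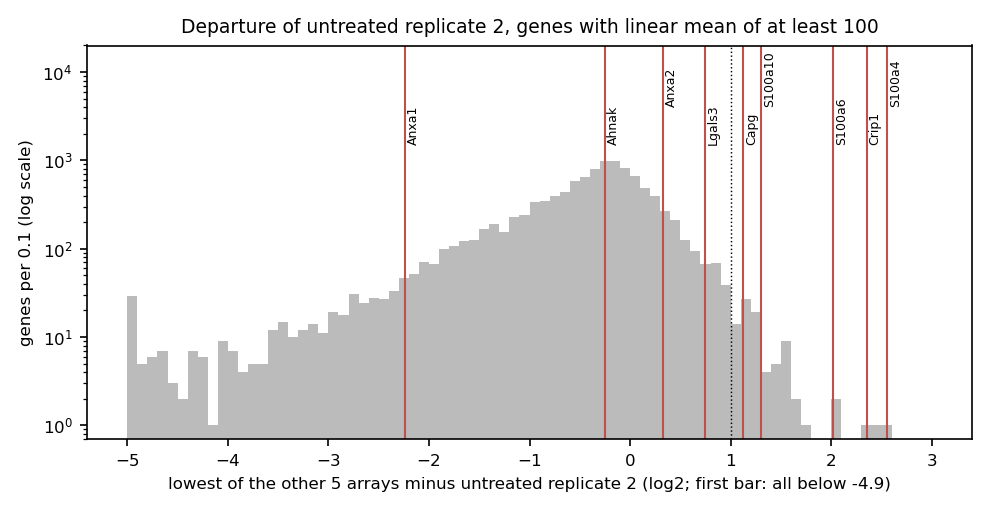
Number of genes (log scale) by the lowest value of the other 5 arrays minus the value of untreated replicate 2 (log2), for 10864 genes with a linear mean of at least 100; red lines mark the 9 member genes and the dotted line a drop of 1. S100a4, Crip1 and S100a6 lie at the right end at 2.55, 2.35 and 2.02, and Anxa1 lies far to the left.

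Set against Ngp array by array, Anxa1 was the member gene furthest below the other arrays where Ngp was lowest, by 1.38. Ahnak 1452217_at and the dim Anxa2 1437692_x_at were lowest there too, by 0.13 and 0.071. In untreated replicate 3, with Ngp at 6.33, the S100 members and Crip1 were at high values: S100a4 at 12.73, S100a6 at 13.82, S100a10 at 13.50 and Crip1 at 14.07. The granule-associated S100a8 and S100a9, which encode the calprotectin subunits and are no members, were at 6.80 and 7.11 there, against 12.18 to 14.19 and 11.83 to 14.55 on the other arrays. The mean of the 9 members was 12.46 in that array and 12.42 to 12.78 in the treated ones, while the mean of 14 measured neutrophil granule markers was 6.36 against 9.33 to 10.57. Summed over those 14 markers, log2 values ran from 130.6 to 148.0 in treated and from 89.03 to 144.1 in untreated arrays. The 19 macrophage and dendritic cell markers summed to 159.6 to 175.3 in treated and 136.4 to 169.5 in untreated arrays. Among these 19 the gate marker gene Itgam, which encodes CD11b, was dim at 4.84 to 6.64 on all arrays. Itgax, which encodes CD11c, was at 6.12 to 7.69. Of the 19, 3 had a mean below the median probe set of the table, Itgam among them. Others were bright, such as Lyz2 at 8.01 to 13.42 and Csf1r at 8.27 to 12.66, each lowest in untreated replicate 3. No probe set in the table is at 0, since RMA values are always positive.

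With Ngp held as a covariate, 0 of 18 member probe sets were called and 59 of all probe sets were. An unadjusted limma p under 0.05 was reached by 6 members in the higher and 0 in the lower direction, against 1.61% and 4.41% of all probe sets. Ngp was low on untreated replicate 3 alone, so this fit comes close to leaving that array out. S100a4 then differed by +1.82, S100a10 by +0.97, Anxa2 by +1.02, Lgals3 by +1.22 and Anxa1 by −0.21, with limma adjusted p values of 0.774, 0.819, 0.601, 0.755 and 0.931. The mean of the myeloid markers as a covariate gave Lgals3 +1.15 and S100a4 +1.80. With the mean of the B cell markers as a covariate, S100a4 differed by +0.18, Lgals3 by +1.00 and Anxa1 by +2.07, and the median over the 9 members was −0.21. That mean was 9.96 and 9.91 in untreated replicates 1 and 2 and 6.48 to 7.06 on the other arrays, over 12 measured genes. It was high on those untreated arrays alone, so this fit comes close to setting the treated arrays against untreated replicate 3 only. These fits cannot tell myeloid or B cell RNA from single arrays, and the part of such RNA in the member values was not tested.

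**Figure D4:**
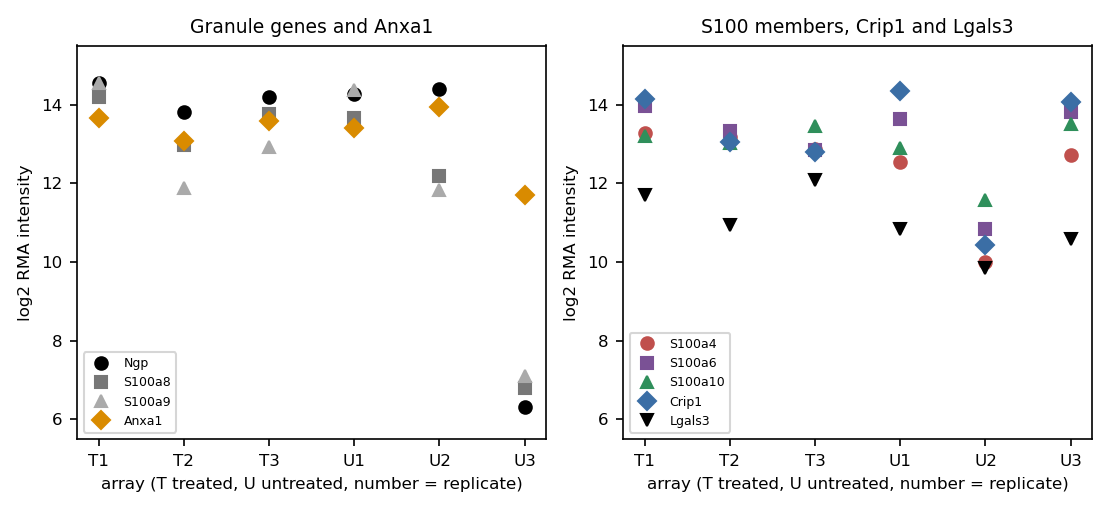
Log2 RMA intensity on each of the 6 arrays (T treated, U untreated, with the replicate number) of Ngp, S100a8, S100a9 and Anxa1 on the left and of S100a4, S100a6, S100a10, Crip1 and Lgals3 on the right. The left-hand genes are lowest in untreated replicate 3, where Ngp is 6.33, and those on the right in untreated replicate 2, where S100a4 is 9.99.

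The mean profile of the members over the 6 arrays, centred gene by gene, was −1.28 in untreated replicate 2 and 0.11 to 0.47 on the others. The genes with the nearest profile, by root mean square difference over 6 arrays among 10855 genes, were Srrm2 (0.0865), Ccdc107 (0.0942), Polr2j (0.105), Atp5h (0.107), Ccn2 (0.117) and Mrps16 (0.130). Srrm2 measured 10.97 in untreated replicate 2 and 12.16 to 12.58 elsewhere, and Atp5h, a subunit gene of ATP synthase, 11.17 against 12.55 to 12.94. S100a10 was the member nearest to this profile (0.195) and Anxa1 the farthest (1.07). The genes nearest to Lgals3 were Arnt2 (0.163), Cd7 (0.218) and Ctdsp1 (0.223), which differed by +1.09, +1.02 and +0.92. These likenesses describe 6 arrays that share their RMA run, and 1 low array weighs heavily in them.

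The remaining genes of the same families gave no calls. All 10 measured S100 genes outside the members had a difference above 0, with a median of +0.30, where 58.5% of all genes lay above 0. This share is the background of the counts in the lists that follow too. Of the 10, 5 lay below the median probe set of the table, and 8 were above 0 without untreated replicate 2. By limma 0 passed, with 0 at an unadjusted p under 0.05. S100a3 differed by +0.32, S100a8 by +2.75 (interval −1.0 to 6.50), S100b by +0.37 and S100a1 by +0.27, and S100a9 by +2.02. Without untreated replicate 3, S100a8 differed by +0.71 and S100a9 by +0.02. The groups did not overlap for S100a3 and S100a1, both of small size. S100a13, picked after its values were seen, was at 8.21 in untreated replicate 2 and 9.78 to 10.13 elsewhere, with a difference of +0.58 that turned to −0.03 without that array.

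Of 9 other annexin genes, 7 were above 0 and 2 below, with a median of +0.15. Anxa4 was the family gene with the smallest p and ran against the members, at 10.41, 10.47 and 10.22 in treated and 10.76, 11.86 and 11.17 in untreated replicates 1, 2 and 3 (−0.90, interval −1.57 to −0.23, limma adjusted p = 0.961). All its treated values lay below all untreated ones. Anxa6, a membrane-organising annexin, differed by +0.50 and by −0.02 without untreated replicate 2, Anxa9 by +0.21 and Anxa13 by +0.23. Anxa3, chosen after its values were seen, resembled Anxa1 in being lowest in untreated replicate 3, at 5.85 against 7.68 to 9.87.

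Among 9 other galectin genes, 6 were above 0 and 3 below, with a median of +0.06. Lgals4 differed by +0.61 (interval 0.15 to 1.08) and Lgals8 by −0.73 (interval −1.29 to −0.17), each without overlap of the groups. Lgals9, which encodes a ligand proposed for the inhibitory receptor TIM-3, differed by −0.76, and Lgals1 by +1.19 (interval −0.51 to 2.88), or +0.27 without untreated replicate 2. Galectin genes therefore had values on both sides, and Lgals8 lay opposite to Lgals3.

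Gelsolin and CRIP relatives numbered 11, of which 8 were above 0 (median +0.22). Flii differed by +0.87, Avil by +0.50, Csrp1 by +0.32 and Scin by −0.61, the last −0.16 without untreated replicate 2. In Flii treated replicate 3 was at 10.86, treated replicates 1 and 2 at 9.38 and 9.25, and untreated arrays at 8.37 to 9.50. Of 14 measured partner and receptor genes 10 were above 0 (median +0.23). Ager, which encodes RAGE, a receptor for several S100 proteins, was at 6.87, 7.44 and 7.26 in treated and 6.61, 6.53 and 6.63 in untreated replicates 1, 2 and 3 (+0.60). Myh9, the non-muscle myosin heavy chain gene whose protein S100A4 binds, was at 10.85, 11.35 and 10.89 against 10.46, 10.24 and 10.63 (+0.59, interval 0.11 to 1.06). In both genes all treated arrays were above all untreated ones, and neither passed (limma adjusted p = 0.961 for each). Capn1 differed by +1.04 and Mgat5 by −0.37, each with overlapping groups. Treated replicate 3 stood apart in Capn1, at 10.65 against 8.22 and 8.38 in treated replicates 1 and 2 and 7.65 to 8.40 in untreated arrays.

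Other genes tied to effector and naive T cells are set beside the members. Of 19 measured effector companions 11 were above 0, with a median of +0.08, and 0 passed by limma, with 0 at an unadjusted p under 0.05. Itga4 differed by −0.51, Il10 by +0.38, Prdm1 by −0.40 and Lmna, the lamin A gene, by +0.71, the last +0.32 without untreated replicate 2. Without that array the median of the effector companions was −0.01. Of 10 naive T cell genes 6 were below 0, with a median of −0.19 and 3 lower at an unadjusted limma p under 0.05. Over all genes these shares were 41.5% and 3.17%. Ccr7, the lymph node homing receptor, differed by −2.05 (limma adjusted p = 0.227), Bach2 by −1.59, Txk by −0.67 and Satb1 by −0.38. The 4 naive genes above 0 were Actn1 (+0.80), Klf2 (+0.68), Lef1 (+0.17) and Dapl1 (+0.12). Of these, Actn1 was +0.04 without untreated replicate 3 and Klf2 −0.06 without untreated replicate 2. Bach2 was at 9.79, 10.24 and 8.53 in untreated replicates 1, 2 and 3, and the B cell marker mean was high in replicates 1 and 2. Ccr7 was at 7.95 to 8.18 in all untreated arrays. The part of B cell RNA in these values was not tested.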

How the data were processed

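Each of the 6 arrays held RNA from 1 mouse, taken up in Trizol and amplified in 2 rounds before biotin labelling, per the labels' protocols. Per the series' design text the authors ran RMA in GenePattern, version not given in the sources used here, and deposited linear intensity values. The table held 45101 probe sets, of which 64 controls were left out. Symbols came from the platform annotation, updated through gene identifiers for 34741 of 34945 probe sets with 1 symbol. Log2 values of 2 groups of 3 were fitted without covariates by lmFit and eBayes of limma 3.58.1 (R 4.3.3), with Benjamini-Hochberg adjustment over 45037 probe sets. Since a sample is a mouse, the p-values rest on how the arrays of different mice in a group vary, and the number of arrays limits the precision. That spread is not of Treg expression alone, since Ngp, the B cell marker mean and the hybridization controls also varied within groups. The fit was tested on simulated data.

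A gene's brightest probe set is the one with the highest mean over all arrays. Named genes were all members, up to 4 genes of each list by smallest p, Ngp, S100a8, S100a9 and Foxp3, and the genes of nearest profile. The members and lists were chosen with earlier results of these data known. Alternatives changed the probe set summary, normalization, filter, variance model, covariates, samples and threshold. RefSeq sequences and positions are those of GRCm38.p6, and 9 of 10 members had a promoter entry. Figures used matplotlib 3.10.9 in Python 3.11.15. Some listed genes were not analysed here.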

Additional observations from a re-analysis of the deposited data

How the results depend on the processing

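No member probe set was called under any of the 21 refits or either of 2 other thresholds, and of 354 refitted member differences 312 kept their direction and 42 reversed. S100a4 and Lgals3 kept a difference above 0 in all 21 refits, with lowest values of +0.18 and +0.87. The dim Anxa2 1437692_x_at and Ahnak 1428057_a_at did so in the 18 refits that held them. The count of all probe sets called, 0 in the reported fit, was 5 with array weights, 59 with Ngp as a covariate, 31 with the myeloid mean and 9 with the B cell mean, and 0 to 59 when arrays were left out, the 59 without untreated replicate 3. The median over the member genes was 0.20 to 1.04 with arrays left out and −0.21 with the B cell mean as a covariate. The cause of these shifts was not tested. The B cell mean was high in untreated replicates 1 and 2 alone, so that fit comes close to keeping untreated replicate 3 as the only untreated array.

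With the B cell mean as a covariate, S100a6 reversed to −0.61, S100a10 to −0.46, −0.76 and −0.11 (1456642_x_at, 1416762_at, 1439348_at), Anxa1 1444016_at to 0.32, Anxa2 to −0.21 and −0.020 (1419091_a_at, 1437691_at), Crip1 to −0.90, Ahnak to 0.23 and −0.17 (1452217_at, 1428058_at) and Capg to −0.58 and −0.47. With Ngp as a covariate Anxa1 1448213_at reversed to −0.21 and Ahnak 1429866_at to 0.0077, and with the myeloid mean these were −0.20 and 0.033. Array weights gave Anxa1 1444016_at 0.23 and Capg 1447803_x_at −0.10. Quantile normalization gave Anxa2 1437691_at −0.050, Ahnak 1452217_at 0.013 and Ahnak 1428058_at −0.019. The mean of its probe sets gave Ahnak 0.15, age as a covariate gave Crip1 −0.12, and the hybridization controls gave Anxa2 1437691_at −0.0097.

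Leaving out 1 array at a time gave −0.35 to 1.14 for S100a6, −0.53 to 0.99 for S100a10 1416762_at, −0.24 to 0.88 for Anxa1 1448213_at, −0.27 to 0.15 for Anxa1 1444016_at, −0.0069 to 0.069 for Anxa2 1437691_at, −0.89 to 1.07 for Crip1, −0.17 to 0.055 for Ahnak 1452217_at, −0.19 to 0.040 for Ahnak 1429866_at, −0.096 to 0.20 for Ahnak 1428058_at and −0.21 to 0.48 for Capg 1447803_x_at. Same-numbered arrays deviated together only for number 1 (correlations 0.45, 0.083 and 0.088), so the numbers were not taken as pairs, although same-numbered arrays carry adjacent array file numbers. With the replicate number as a block 0 member probe sets were called, 5 had an unadjusted p under 0.05 in place of 3, all higher, and the median stayed at 0.61. Over all probe sets the share at that p was 2.57% higher and 4.13% lower with the block, against 1.53% and 3.0% without it. Counts at an unadjusted p and of groups without overlap, and family genes and lists without an untreated array, were added after the data were seen.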

Other observations

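Marker lists of other cells that the sort could hold were summarised by the median difference of their genes. It was −2.40 over 12 B cell genes, +1.01 over 14 neutrophil granule genes and +0.60 over 19 macrophage and dendritic cell genes. Without untreated replicate 3, chosen after the data were seen, these medians were −3.35, −0.06 and +0.07. Over 6 natural killer cell genes it was −0.08, over 7 erythroid and platelet genes +0.17 and over 10 stromal and endothelial genes +0.19. Without untreated replicate 3 these were −0.38, −0.21 and +0.24. T cell markers gave +0.37 over 9 genes and Treg markers +0.24 over 6. Without untreated replicate 2 these were +0.09 and +0.07. No gene of these lists passed the limma test. Of the 12 B cell genes 9 had an unadjusted limma p under 0.05, all lower in the treated samples, against 3.17% of all genes. Array means of the stromal list stayed between 5.68 and 6.05, with 8 of 10 genes below the median probe set of the table.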
